A study of Mus musculus with 2 samples.

Results

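The Ly49 receptors are measured here through 10 genes, Klra3, Klra4, Klra5, Klra6, Klra7, Klra8, Klra9, Klra10, Klra15 and Klra16, and 15 array probes, out of 28697 different gene names and 41174 non-control probes on the array. A probe was taken if either of the 2 scanner files gave it one of these names, and probes of a gene were kept apart. Spleens of C57BL/6 mice, an inbred strain, gave the RNA: CD8 T cells were sorted into CD8+CD122+ and CD8+CD122-, and their messenger RNA was amplified. No treatment, transgene or mouse age was given. CD122, encoded by Il2rb, is a chain shared by the interleukin 2 and interleukin 15 receptors. Both populations were hybridised together to each of 2 two-colour arrays, a single group of n = 2. Array 1 carried CD8+CD122+ RNA in the red dye Cy5 and CD8+CD122- RNA in the green dye Cy3, and on array 2, labelled as a second trial, the dyes were swapped. Whether the second trial used new mice is not given, so p-values and SDs measure only the spread between these 2 arrays. All ratios below are CD8+CD122+ over CD8+CD122-.

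Ly49 receptors are lectin-like proteins on the cell surface that recognise MHC class I molecules, and their genes lie side by side in the natural killer gene complex on mouse chromosome 6. They are best known from natural killer (NK) cells, where each cell carries a few of them, and they are also known from memory-like CD8 T cells. Inhibitory members (Ly49C from Klra3, Ly49E from Klra5, Ly49F from Klra6, Ly49G from Klra7, Ly49I from Klra9, Ly49J from Klra10 and Ly49O from Klra15) recruit the phosphatase SHP-1. Activating members (Ly49D from Klra4, Ly49H from Klra8 and Ly49P from Klra16) signal through the adaptor DAP12. The genes arose by duplication and are very alike, and mouse strains carry different sets of them. A probe's name is therefore that of the array's design, and how much of its signal comes from near-identical relatives is uncertain.

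The likeness of the genes can be seen just before their start sites. RefSeq promoter windows (assembly GRCm38.p6, the 250 bases before each start were searched) were at hand for 8 of the 10 genes, in 10 windows, all on the minus strand of chromosome 6. The stretches below are shown because these genes differed in ratio and yet share a word of 12 bases there. Each is printed 5′ to 3′, with the word, or in Klra7 its closest match, in capitals.
Klra7 (chr6:130233388-130233447, minus strand): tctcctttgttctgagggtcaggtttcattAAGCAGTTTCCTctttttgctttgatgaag
Klra6 (chr6:130027050-130027109, minus strand): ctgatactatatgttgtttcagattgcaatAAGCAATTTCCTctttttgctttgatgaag
Klra3 (chr6:130337627-130337681, minus strand): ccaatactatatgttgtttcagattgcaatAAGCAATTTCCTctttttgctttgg
Klra9 (chr6:130193127-130193186, minus strand): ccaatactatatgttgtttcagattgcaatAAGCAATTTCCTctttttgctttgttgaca
Klra5 (chr6:129913291-129913350, minus strand): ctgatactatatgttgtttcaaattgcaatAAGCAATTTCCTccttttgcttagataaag
Klra4 (chr6:130067327-130067386, minus strand): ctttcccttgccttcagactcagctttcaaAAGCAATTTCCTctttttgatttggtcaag
Klra8 (chr6:130129955-130130014, minus strand): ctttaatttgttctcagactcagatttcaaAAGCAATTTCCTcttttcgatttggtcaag

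The word AAGCAATTTCCT stood in 7 windows of 6 genes, on the printed strand, and began between 25 and 149 bases before the start. It was chosen after the sequences were read, as a word shared by the most member genes, and 1 other word of that length was shared by as many. The choice between them went to the word in the fewest of all windows, then by alphabet. The number of genes and the share of all windows were thus part of the choice and are no independent measure. Among all 32851 RefSeq windows it stood in 10 (0.0304%), of which the remaining 3 belonged to Dhrs3, Kcnf1 and Klra17. One of the windows of Klra7 held it with the substitution A6G, counted from the word's first base, and Klra10 held nothing closer than 4 mismatches. The word contains TTTCCT, a core bound by ETS factors, which was found on either strand in 7 of the 8 genes and in 25.4% of all windows. The TCF core CTTTGA was found on either strand in Klra6 and Klra7 and in 13.8% of all windows. The RUNX core TGTGGT and the T-box core GTGTGA were found on either strand in 0 of the 8 genes, against 14% and 12.3% of all windows. These are matches of letters in 1 window and nothing more. Klra15 and Klra16 have no window in the table.

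As for the arrays as a whole, 69.5% to 83.4% of non-control spots were well above background in a population on an array. The scanner reads the red dye and the green dye at different brightness, so raw spot signals of the populations are not on 1 scale until normalisation, and ratios are given after it. Il2rb, the gene of the sorted marker, had log2 ratios of 2.60 and 2.34 on arrays 1 and 2. Each of 15 probes of 8 T cell genes was well above background in every channel, and 0 of them were 2-fold apart in the same direction on both arrays. Of the 15, 11 were below 0 on both arrays, with a median of -0.26, the 4 Cd8a probes between -0.61 and -0.45 among them. Xist RNA, made from the inactive X chromosome of females, was not alike on the 2 arrays. On the Xist probe brightest on array 2, array 1 read 92.9 in CD8+CD122+ and 104 in CD8+CD122-, against 1440 and 1191 for array 2. The Xist probe brightest on array 1 read 289 and 236 there, well above background, against 526 and 762 on array 2. Xist probe A_52_P362360 read 69.1 and 86.2 on array 1, against 410 and 388 on array 2. Probe A_52_P113537 read 65.3 and 83.7, against 121 and 138. Both were well above background on array 2 only. Every Xist probe was thus brighter on array 2 in both populations, and the probes differed in how far the arrays lay apart. Each ratio below is therefore also given for each array alone.

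All 15 probes of the Ly49 genes had a log2 ratio above 0 on both arrays, which held for 26.5% of all 41174 probes. At least 2-fold higher in CD8+CD122+ on both arrays were 4 probes, 1 each of Klra7, Klra16, Klra15 and Klra6, against 0.189% of all probes (78). The other 11 did not pass this rule of size, and 0 were 2-fold lower on both arrays, against 0.0607% of all probes. The median log2 ratio of the 15 probes was 0.76, with 0.95 on array 1 and 0.57 on array 2, while the median of all probes was 0.00. With limma and Benjamini-Hochberg adjustment over all probes, 0 of the 15 passed an adjusted p of 0.05, as did 0% of all probes. The smallest adjusted p among the 15 was 0.0920 with 1 residual degree of freedom, and unadjusted p-values were under 0.05 for 11 of the 15 and for 5.61% of all probes. Because limma called no probe, the words higher and lower below refer to measured ratios and the rule of size.

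**Figure D1:**
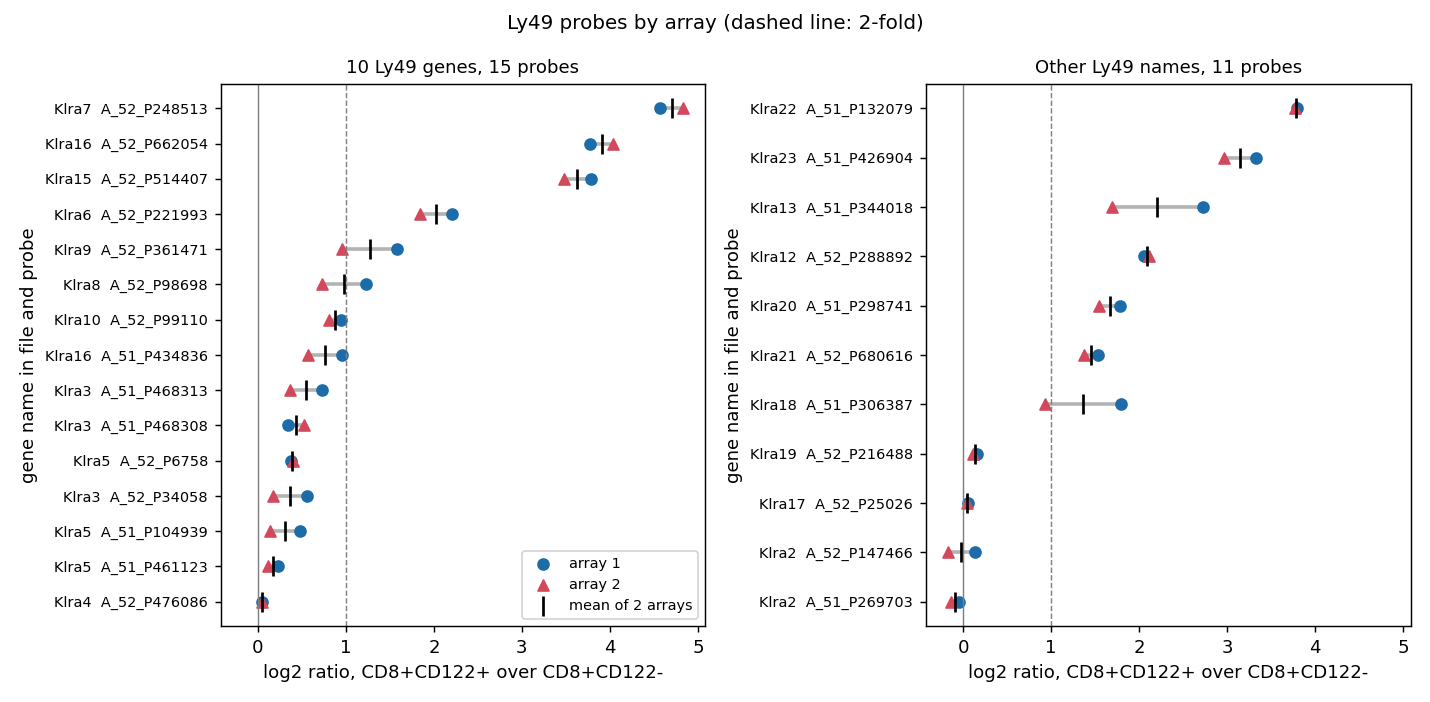
Log2 ratio of CD8+CD122+ over CD8+CD122- (x axis) for each probe (y axis), with array 1 as circles, array 2 as triangles and the mean of the 2 arrays as a bar. The left panel shows the 15 probes of the 10 genes, all above 0 on both arrays with 4 beyond the dashed 2-fold line on both, and the right panel shows 11 probes of other Ly49 names.

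Among the inhibitory receptors, the gene of Ly49G stood highest. The mean spot signal of the Klra7 probe (A_52_P248513) was 1874 in CD8+CD122+ and 89.0 in CD8+CD122- on array 1, and 1818 and 117 on array 2. CD8+CD122+ was far above CD8+CD122- on both arrays, and the CD8+CD122- signal was well above background on array 2 only. The log2 ratios of 4.57 and 4.83 gave a mean of 4.70 ± 0.18 (SD, n = 2), or 26.1-fold, with a limma adjusted p of 0.0920. This was the highest mean ratio of all 41174 probes (rank 1). On array 2, where both populations were measured, it was 4.83.

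Klra15, for the inhibitory receptor Ly49O, followed. Its signals were 1233 in CD8+CD122+ and 98.6 in CD8+CD122- on array 1, and 773 and 119 on array 2. The populations lay far apart on both arrays, and every signal was well above background. The log2 ratio was 3.63 ± 0.22 (SD, n = 2; 3.79 and 3.48), or 12.4-fold, with a limma adjusted p of 0.15 and rank 10 of all probes. Ly49O is known from other strains than C57BL/6, and Klra15 was the 1 of the 10 names not matched in the RefSeq gene table.

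The Klra6 probe, named for Ly49F, read 694 in CD8+CD122+ and 146 in CD8+CD122- on array 1, and 434 and 181 on array 2. CD8+CD122+ was again higher on both arrays, here over a CD8+CD122- signal that was well above background on both. The log2 ratio was 2.02 ± 0.25 (SD, n = 2; 2.20 and 1.84), or 4.07-fold, with a limma adjusted p of 0.255 and rank 34. By the accessions in the file this probe stands for 3 transcripts, those of Klra6, of Klra5 and 1 that the Klra19 probe also lists, so its ratio cannot be given to Klra6 alone.

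Klra9, for Ly49I, passed 2-fold on 1 array only. Its probe read 212 in CD8+CD122+ and 91.0 in CD8+CD122- on array 1, and 171 and 110 on array 2. The CD8+CD122+ signals lay above the CD8+CD122- signals on both arrays, but the gap was narrower on array 2. The CD8+CD122- signal was not well above background on array 1, the only array on which the ratio passed 2-fold. The log2 ratios of 1.58 and 0.96 gave 1.27 ± 0.44 (SD, n = 2), the widest spread of the 15 probes, with a limma adjusted p of 0.573. The probe also lists a transcript of the Klra21 probe.

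Klra10, for Ly49J, was measured near background. It read 134 in CD8+CD122+ and 84.5 in CD8+CD122- on array 1, and 123 and 80.7 on array 2, and CD8+CD122- was not well above background on either array. CD8+CD122+ was the brighter population on both arrays. The log2 ratio was 0.88 ± 0.10 (SD, n = 2; 0.95 and 0.81; limma adjusted p = 0.348). Since CD8+CD122- has only a bound here, the difference is given as at least 1.74-fold under the main processing. Such a bound sets the mean of the brighter population against that of the dim one. On each array the dim value is raised, where needed, to the lowest normalised signal that any probe well above background had in that channel. The bound is a mean over 2 arrays and holds for that processing only. For Klra10 it was 0.80 in log2, while without background subtraction the mean log2 ratio was 0.66.

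The 3 probes named Klra3, for Ly49C, had low ratios, with means from 0.36 to 0.55. Probe A_51_P468313 had log2 ratios of 0.73 and 0.37, with signals of 137 and 95.3 on array 1 and 114 and 92.1 on array 2. It lists transcripts of 4 genes, Klra10, Klra6, Klra3 and Klra9. Probe A_51_P468308, which the file of array 1 names Klra12, had 0.34 and 0.52. Its CD8+CD122- signal was not well above background on either array, which makes it at least 1.30-fold under the main processing (limma adjusted p = 0.651). That bound is 0.38 in log2, while without background subtraction the mean log2 ratio was 0.32. Probe A_52_P34058 was the brightest in CD8+CD122- of all 15, and before normalisation its CD8+CD122+ signal lay above the other on array 1 (267 and 169) and below it on array 2 (303 and 363). After normalisation its log2 ratios were 0.55 and 0.17. No Klra3 probe reached 2-fold on an array.

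The 3 probes named Klra5, for Ly49E, stayed lower still, with means from 0.17 to 0.38. Probe A_52_P6758 had log2 ratios of 0.37 and 0.39 and the smallest spread of the 3. Probe A_51_P104939 had 0.48 and 0.14, with signals of 196 and 141 on array 1 and 148 and 151 on array 2, so before normalisation CD8+CD122- was slightly the brighter on array 2. Probe A_51_P461123 had 0.23 and 0.12, but its identity is in doubt. The file of array 1 names it Tlr5, a receptor for bacterial flagellin, both its listed accession and its place on chromosome 1 in the array's design belong to that name, and only the file of array 2 calls it Klra5.

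Among the activating receptors, probes differed in ratio within a gene as well as between names. Klra16, for Ly49P, which like Ly49O is known from other strains, has 2 probes. On probe A_52_P662054 the signals were 1308 in CD8+CD122+ and 103 in CD8+CD122- on array 1, and 1188 and 127 on array 2. The populations were far apart on both arrays, and the log2 ratio was 3.91 ± 0.19 (SD, n = 2; 3.77 and 4.04), or 14.98-fold, with a limma adjusted p of 0.125 and rank 6 of all probes. Probe A_51_P434836 read 136 in CD8+CD122+ and 86.6 in CD8+CD122- on array 1, and 121 and 88.4 on array 2, with CD8+CD122- not well above background on either. That probe had a log2 ratio of 0.76 ± 0.27 (SD, n = 2; 0.96 and 0.57; limma adjusted p = 0.620), at least 1.70-fold under the main processing. Its bound equals this mean ratio, which was 0.59 without background subtraction. The measured ratios of the 2 probes lay 2.82 apart on array 1 and 3.47 apart on array 2, but the dimmer one has only a bound. On the processed signals they were 5.31 ± 0.13 and 2.99 ± 0.98 (SD, n = 2). The brighter probe lists the Klra16 transcript alone, and the dimmer lists those of Klra16 and Klra1.

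Klra8, for Ly49H, the receptor that recognises a protein of mouse cytomegalovirus, read 218 in CD8+CD122+ and 105 in CD8+CD122- on array 1, and 171 and 128 on array 2. All of these signals were well above background, and CD8+CD122+ was higher on both arrays. The log2 ratios of 1.23 and 0.72 gave 0.98 ± 0.36 (SD, n = 2), or 1.97-fold, with a limma adjusted p of 0.620. Like Klra9, it passed 2-fold on array 1 only.

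The probe named Klra4, for Ly49D, had the lowest ratio of the 15. Its signals were 69.7 in CD8+CD122+ and 85.3 in CD8+CD122- on array 1, and 97.3 and 87.8 on array 2, and only CD8+CD122+ on array 2 was well above background. The log2 ratios were 0.04 and 0.05, and no fold can be given. This probe lists no RefSeq transcript, is placed on chromosome X by the design, carries no gene name in the file of array 1 and is described in the other file as Klra18.

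**Figure D2:**
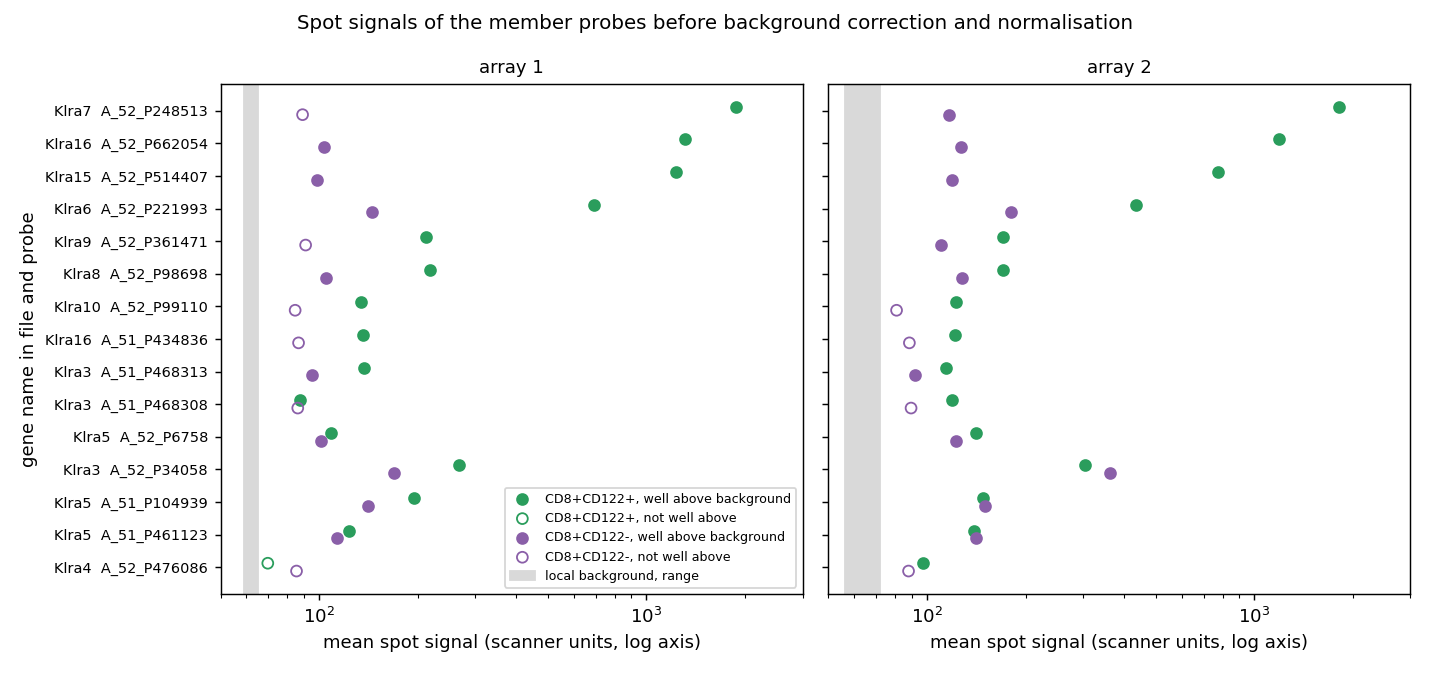
Mean spot signal in scanner units (x axis, log scale) of the 15 probes on array 1 (left) and array 2 (right), green for CD8+CD122+ and purple for CD8+CD122-, filled where well above background and open where not, with the range of local background in grey. The 4 probes at the top reach 434 to 1874 in CD8+CD122+ while their CD8+CD122- signals lie between 89.0 and 181, and the other 11 stay at or below 303 in CD8+CD122+.

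Ordered by mean ratio under the main processing, some of the highest probes lay apart on both arrays, and the lower ones ran together. Klra7 lay above Klra16 (A_52_P662054) on both arrays, while the ranges of Klra16 and Klra15 overlapped. Klra6 lay below those 3 and above Klra9 on both arrays. On the deposited processed signals the mean of Klra6, 2.65, was below that of Klra9, 2.88. The ranges of Klra9, Klra8 and Klra10 overlapped from one to the next, and the remaining 8 probes fell between 0.05 and 0.76. The larger ratio was on array 1 for 10 of the 15 probes. CD8+CD122+ was well above background on both arrays for 14 of the 15 probes. CD8+CD122- was so for 9, on 1 array for 2, and on neither for 4. In sorted bulk cells, more cells that carry a receptor and more of its RNA in each cell cannot be told apart.

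**Figure D3:**
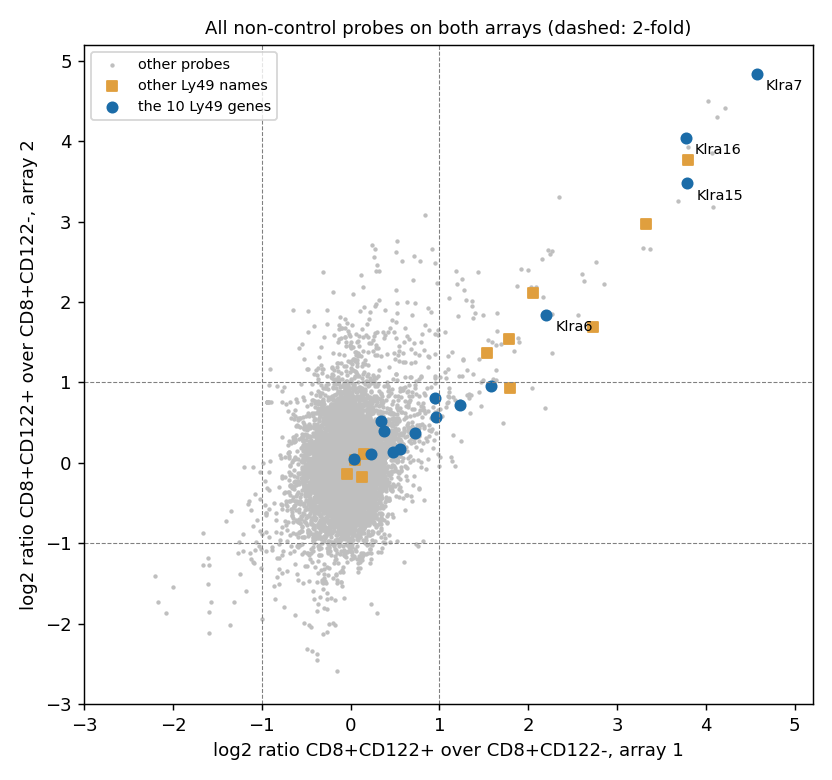
Log2 ratio on array 1 (x axis) against array 2 (y axis) of all 41174 non-control probes (grey), with the 15 probes of the 10 genes as blue circles and the 11 probes of other Ly49 names as orange squares. Klra7, Klra16, Klra15 and Klra6 lie beyond the dashed 2-fold lines on both arrays, and Klra7 has the highest mean of all probes.

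The size of these ratios depended on how the signals were processed. On the deposited processed signals, for which the scanner software had subtracted background and normalised the dyes in its own way, 10 of the 15 probes reached 2-fold or more on both arrays, against 0.522% of all probes. They belonged to 8 genes, and the median log2 ratio was 2.11. The bright Klra7 probe went from 4.70 to 6.74 and the Klra15 probe from 3.63 to 5.24. The dim Klra10 probe went from 0.88 to 3.50 and the dimmer Klra16 probe from 0.76 to 2.99. The Klra3 probe A_52_P34058, at 0.51, and the 3 Klra5 probes, at 0.37 to 0.83, stayed below 2-fold there as well, as did Klra4 at 0.46. The 5 probes below 2-fold were thus those named Klra4 and Klra5 and 1 of Klra3. Background and normalisation both differ there. With the background alone changed, the median was 1.38 with 8 probes at 2-fold for an offset of 16, against 120 of all probes. Without subtraction it was 0.59 with 4 probes, against 68 of all probes.

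**Figure D4:**
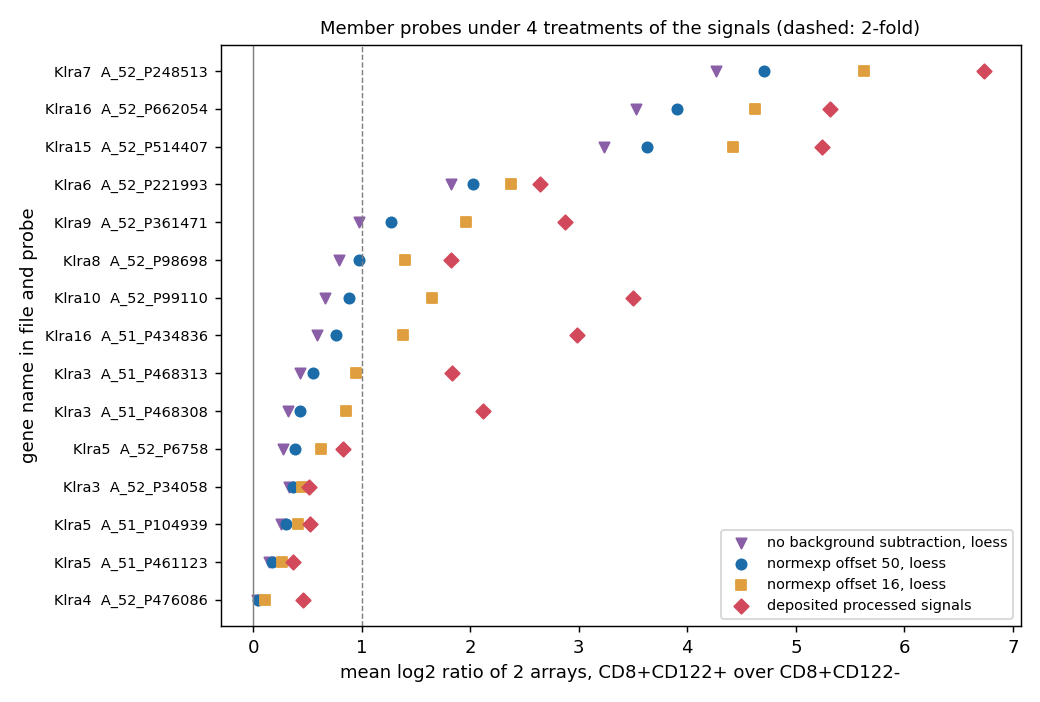
Mean log2 ratio over the 2 arrays (x axis) of each of the 15 probes (y axis) under 4 treatments of the signals, given in the legend, of which the deposited processed signals also differ in normalisation. The order of the 4 highest probes, Klra7, Klra16, Klra15 and Klra6, is the same without subtraction and with either offset. On the deposited processed signals Klra6, at 2.65, falls below Klra10 (3.50), the dimmer Klra16 probe (2.99) and Klra9 (2.88). The dim probes of Klra10, Klra16 and Klra3 spread widely, from 0.66 to 3.50 for Klra10.

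The names in the files limit what can be said of a single gene. The file of array 2 names all 15 probes as members and that of array 1 only 7, and 26378 of all non-control spots have a different gene name in the 2 files. The design places 13 of the 15 probes on chromosome 6. Without the Klra4-named probe on chromosome X and the Klra5-named probe on chromosome 1, the median log2 ratio was 0.88 and the count at 2-fold stayed at 4. Of the 15 probes, 5 list 2 or more RefSeq transcripts, 9 list 1 and 1 lists none.

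Other names of the same family filled the same range. Of 11 probes with 10 other Ly49 names, 6 passed the rule of size as higher in CD8+CD122+ and 0 as lower, with a median of 1.45. Each of these 6 lists at least 1 transcript not matched in the RefSeq gene table, so which gene it reads is uncertain. The Klra22 probe had log2 ratios of 3.79 and 3.77, with the smallest limma adjusted p of all probes, 0.0904, and lists a Klra4 transcript among others. A receptor gene whose own-named probe was near 0 is thus listed on a probe near the top. The Klra23 probe, which lists the Klra7 transcript among others, had 3.33 and 2.97, below the Klra7 probe's 4.57 and 4.83. Klra13 had 2.72 and 1.69, and Klra12, which lists transcripts of Klra4 and Klra15, had 2.05 and 2.11. Klra20 (1.79 and 1.55) and Klra21 (1.53 and 1.37) completed the 6 and, like the next, are named after their values were seen. Klra18, which also lists Klra4, had 1.79 and 0.93. The 3 probes that list Klra4 therefore ranged from 1.36 to 3.78 in mean ratio. Both Klra2 probes, with means of -0.09 and -0.02, Klra17 at 0.05 and Klra19 at 0.14 lay near 0. The Klra2 and Klra19 probes were not well above background in any channel and Klra17 in 1 only, so these ratios say nothing of expression. Of all 26 Ly49 probes, 10 were 2-fold higher on both arrays.

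The genes that Ly49 receptors work with did not share these ratios. Of 6 probes of activating adaptors and kinases, 0 were 2-fold higher or lower on both arrays. Tyrobp, the gene of DAP12, had log2 ratios of 0.23 and -0.14, in opposite directions on the 2 arrays. Its signals, from 97.6 to 125, were flagged well above background but were low, where the processing shrinks ratios. Hcst, which encodes the related adaptor DAP10, had 0.80 and 0.16. Among 6 probes of inhibitory phosphatases 0 passed the rule, and the 2 probes of Ptpn6, the gene of SHP-1, had means of 0.05 and 0.03. The first of these was 0.51 on array 1 and -0.41 on array 2. Of the MHC class I ligand list, 2 of 4 names were on the array, and their 3 probes lay between -0.27 and -0.15, with 0 past 2-fold.

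Lectin receptors encoded next to the Ly49 genes were mostly near 0 under the main processing. In CD8+CD122+ 13 of their 20 probes were well above background on both arrays and in CD8+CD122- 9, so several ratios near 0 say little of expression. Of the 20 probes, of 12 such genes (15 had been listed), 1 was at least 2-fold higher on both arrays and 0 lower, with a median of 0.03. The 1 that passed was a probe of Klrc1, which encodes the inhibitory receptor NKG2A, with log2 ratios of 1.99 and 2.40. The other Klrc1 probe had a mean of 0.57, so here too probes of a gene differed. Of the 20 probes, 10 were above 0 on both arrays, 1 was below 0 on both and 9 had opposite signs. Those above 0 included dim probes of Klre1 (1.09 and 0.74), Klrc3 (0.69 and 0.44) and Klrk1 (0.51 and 0.56), named after their values were seen. The other probes of Klre1, Klrc3 and Klrk1 had means of 0.01, 0.02 and 0.10. Among 10 probes of 6 transcription factors (7 listed), 3 were 2-fold higher on both arrays and 0 lower. These were Tbx21 (2.27 and 1.37), the gene of T-bet, Eomes (1.63 and 1.02), a related T-box factor of memory-like CD8 T cells and NK cells, and 1 of 2 Nfil3 probes (1.11 and 2.05), for a factor of NK cell development. Tcf7, whose protein TCF-1 is known to bind Ly49 promoters, had means of -0.18 and -0.15 on its 2 probes. Id2, a factor of NK cells and effector CD8 T cells named after its values were seen, was below 0 on both arrays on both of its probes, with means of -0.75 and -0.73.

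NK cells also carry Ly49 receptors and CD122, so NK marker genes are given beside the Ly49 probes. Of 22 probes of 8 NK marker genes, 0 were 2-fold higher on both arrays, and their mean log2 ratios ran from -0.12 to 0.12. In CD8+CD122+, 12 of the 22 were well above background on both arrays and 4 on neither. Ncr1, the gene of the NK receptor NKp46, was not well above background in either population on either array. Klrb1c, which encodes NK1.1, had means of 0.10 and 0.07 on its 2 probes. The NK marker signal over local background, summed over the 22 probes, was 1600 and 2070 in CD8+CD122+ on arrays 1 and 2 and 1617 and 2213 in CD8+CD122-. The same sum over the 15 Ly49 probes was 5849 and 4985 in CD8+CD122+ and 667 and 952 in CD8+CD122-, so it was 8.77 and 5.24 times as high in CD8+CD122+ before normalisation. The NK sums were 0.990 and 0.935 times as high, with 42.0% to 65.3% of each sum in 1 probe of Ncam1 and 1 of Fcer1g. Without these 2 probes they were 0.674 and 1.22 times as high. Much of the Ly49 sum likewise lay in few probes. The 4 past the rule of size read 434 to 1874 in CD8+CD122+, and the other 11 read at most 303. The multiples of the Ly49 sum without those 4 are not given. Summed over all probes, signal over local background was 1.59e+07 and 1.41e+07 in CD8+CD122+ and 1.12e+07 and 1.95e+07 in CD8+CD122-. Raw sums as a whole were thus higher in CD8+CD122+ on array 1 and lower on array 2, and the multiples given here are not corrected for that. The 2 probes of Cd4, the 6 of B cell genes and the 13 of myeloid genes also gave 0 at 2-fold, and of the myeloid probes those named Itgax (0.61 and 1.07) and Lyz2 (0.77 and 0.33) were highest, while the other Itgax and Lyz2 probes had means of 0.03 and -0.04. These names were picked after their values were seen, and the part of such cells in the Ly49 ratios was not tested. The markers chosen for NKT and gamma delta T cells matched no probe name, so these cells have no values here.

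5 genes outside the family were nearest in ratio to the median point of the 14 Ly49 probes well above background in CD8+CD122+, which lay at 0.95 on array 1 and 0.65 on array 2. Of those 14 probes, 3 had no CD8+CD122- signal well above background on either array, so the point itself is approximate. The genes were Fgf13, Sgk1, Tm6sf1, Fabp2 and Fcgrt, by Euclidean distance over the 2 arrays. Fgf13, a growth factor homologue, was closest with 0.95 and 0.63, at a distance of 0.016. The Ly49 probes themselves lay between 0.077 and 5.54 from that point, so a single point describes the family poorly.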

How the data were processed

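Each scanner file holds 43790 spots, of which 2256 are controls. The authors deposited linear spot intensity values with local background per channel, made with Agilent Feature Extraction (per the submitters' processing notes), whose version was 8.1.1.1 on array 2 and a lower-numbered one on array 1 (per the file headers). The files also hold deposited processed intensity values and log10 ratios, and the series' value table holds the scanner's log10 ratios as CD8+CD122- over CD8+CD122+, opposite to the direction used here. Per the file headers, flags mark spots that are well above background, saturated or outliers. No source used here names a build for the design's coordinates, so probes are placed by chromosome only.

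Mean signals were corrected with normexp (offset 50) against the median local background, and loess (span 0.3, control spots weighted 0) was applied to the log2 ratios of each array separately, with limma 3.58.1 in R 4.3.3. Outlier spots were left out, saturated spots were kept, spots of a probe were averaged, and no filter on dim probes was used. The offset shrinks the ratios of dim probes. Signs were turned for the dye swap. A two-sided limma fit (lmFit, eBayes; 1 residual degree of freedom, no dye term) over 41174 probes was adjusted by Benjamini-Hochberg and called at 0.05. The rule of size asks for 2-fold or more on each array with the same sign and carries no p-value. The script was tested on simulated data.

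All member probes are named, with Il2rb, up to 4 probes of each list past the rule of size, Tyrobp, Hcst, Ptpn6, Tcf7 and the 5 genes nearest in ratio. Other names were chosen after their values were seen. The members and lists were chosen with earlier results of these data known. The number of arrays limits the precision. Alternatives covered background, normalisation, filters, the source of the ratios, moderation, thresholds and leaving out each array.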

Additional observations from a re-analysis of the deposited data

How the results depend on the processing

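The source of the signals, the background offset and the normalisation moved several results. The median of the 15 Ly49 probes was 0.76 and became 2.11 with the processed signals, with the scanner's log10 ratios and with the value table, and 1.38 with normexp offset 16. The count at 2-fold higher on both arrays, 4 beside 78 of all probes, became 10 in those first 3 settings, beside 215, 201 and 201. It became 8 with offset 16, beside 120 of all probes, and 7 at 1.5-fold, for which no count over all probes is given. limma called 0 of the 15 and 0 of all probes, but 2 of the 15 with offset 16, which called 8 of all probes. It called 7 of the 15 with median centring in place of loess, which called 308 of all probes, and the cause was not tested. With median centring 13 of the 15 were positive on both arrays, the exceptions being Klra4 (-0.10 and 0.25) and the Klra3 probe A_52_P34058 (0.75 and -0.11). The count over the other gene lists was 10, of which 6 were probes of other Ly49 names. It became 16 with the processed signals and both sets of log10 ratios.

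With 1 array left out, the median ranged from 0.57 to 0.95, the count at 2-fold from 4 to 6 (6 on array 1 alone, with Klra8 and Klra9) and the list count from 11 to 12. For 1 array alone no count over all probes is given either, so these counts have no share to be read against. Of 119 single-probe values under alternatives with a test, 110 kept their direction and side of the threshold and 9 passed it anew. Part of these could not differ in ratio, so the counts are no measure of stability. Saturation touched 0 of the member probes, the filter on dim probes left ratios as they were, and the value table repeats the scanner's log10 ratios. The 30 values from 1 array alone have no test and are the ratios of each array already given, all above 0. No paired analysis was possible because both arrays belong to 1 group and each ratio already sets the 2 populations of an array against each other.

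Signal over background limits the dim probes: the 4 without a CD8+CD122- signal well above it have at most a bound, which holds for the main processing only.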
